A study of Mus musculus with 2 samples.

Results

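Brain fibroblasts were represented by 331 of the 27740 barcodes kept from both libraries, 168 of 13745 in the metastasis library and 163 of 13995 in the naive library. A barcode counted as a fibroblast when Dcn, Lum, Col1a2, Slc6a13 and Slc47a1 together gave at least 5 unique molecular identifiers (UMIs, each standing for 1 captured transcript) and at least 0.15% of its UMIs. It also had to hold fewer than 3 UMIs of the mural genes Rgs5, Notch3, Kcnj8 and Abcc9 and less than 1% of the melanoma genes Pmel, Mlana, Tyrp1 and Dct. These levels chose the members and are given below as a description only.

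The study profiled the brain by droplet-based single-cell RNA sequencing of 3' transcript ends. The metastasis library pooled 3 brains of C57BL/6J mice, 10 weeks old, whose brains had been injected with B16/F10-BrM, a brain-tropic derivative of the B16 mouse melanoma line. The naive library pooled 3 brains of C57BL/6J mice of the same age without tumour. Both cell suspensions were enriched for astrocytes with beads against ACSA-2, an astrocyte surface antigen, so fibroblasts were carried over by the enrichment and their share is not that of the tissue. With 1 library per group no test between the groups was possible: every difference below lies between these libraries, and tumour, injection and library cannot be told apart. The submitters exchanged the titles of the 2 samples in a later update, and the present titles were used. Over all kept barcodes the 4 melanoma genes gave 7989 CPM (UMI counts scaled to a total of 1000000 UMIs) in the metastasis library and 259 CPM in the naive library.

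Fibroblasts of the brain lie in the layers of the meninges, around larger vessels and in the stroma of the choroid plexus. They deposit collagens, laminins and small proteoglycans, and those of the arachnoid also carry transporters that move solutes between blood and cerebrospinal fluid. Cells exposed to interferon switch on a shared programme that includes antiviral proteins, guanylate-binding and immunity-related GTPases, the class I antigen presentation machinery and chemokines that attract T cells and monocytes.

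The fibroblasts made up 1.22% of kept barcodes in the metastasis library (95% exact binomial interval 1.05 to 1.42%) and 1.16% in the naive library (0.994 to 1.36%). The intervals overlapped, and like all intervals here they cover counting error only. The members held 545410 UMIs in the metastasis library and 623811 UMIs in the naive library, with medians of 2721 and 2400 UMIs per barcode. Exactly 5 UMIs of the 5 genes were found in 16 metastasis and 17 naive members, while 17 metastasis and 38 naive barcodes had 4 such UMIs and stayed outside. The lowest shares inside were 0.152% and 0.151%, and the nearest below the limit were 0.146% and 0.1496%. Of the kept barcodes, 53 had the same sequence in both libraries, none of them a fibroblast in both.

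By the rule genes they carried, the members fell into 2 kinds of barcode, both with Col1a2. One kind carried Dcn (decorin, a small proteoglycan that binds collagen), Lum (lumican, its relative) and Slc6a13 (a transporter of GABA and taurine). The other carried Slc47a1, a transporter that exports organic cations, and almost none of those 3 genes. Both kinds of UMI occurred together in 14 of 168 metastasis members and 17 of 163 naive members. Barcodes with more UMIs of Dcn, Lum and Slc6a13 than of Slc47a1 are called the Dcn type below, and the others the Slc47a1 type. In 6 metastasis and 8 naive members the Dcn, Lum and Slc6a13 side held between 20% and 80% of these UMIs and so lay near the boundary. The split was chosen after the data were seen, and its genes are those of the rule.

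**Figure D1:**
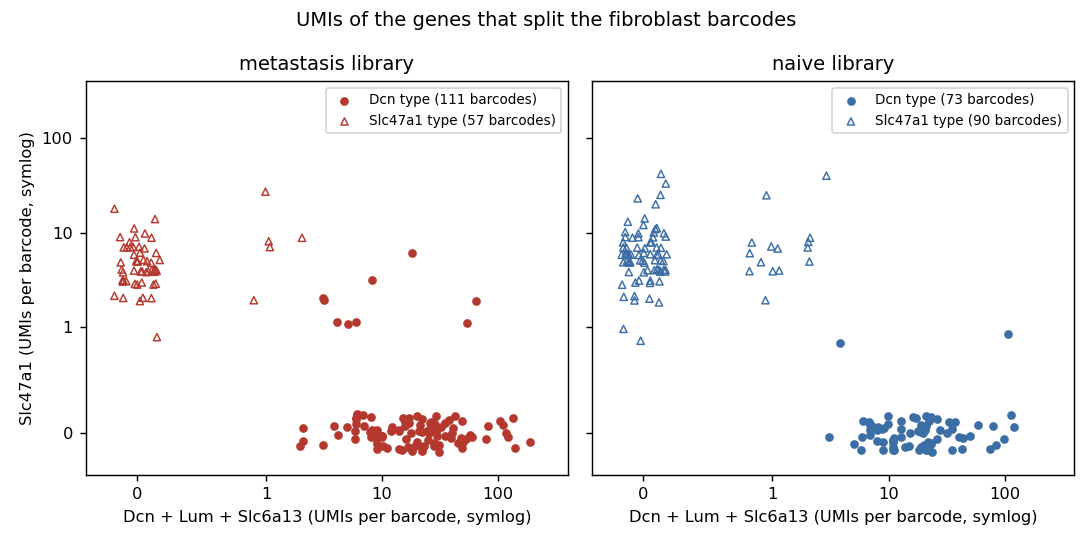
Each point is 1 fibroblast barcode, with its UMIs of Dcn, Lum and Slc6a13 together on the x axis and of Slc47a1 on the y axis (both linear below 1 and logarithmic above, with a small scatter so that equal counts can be seen). Filled circles are the Dcn type and open triangles the Slc47a1 type; most points lie along 1 of the 2 axes in both libraries, and 14 metastasis and 17 naive members lie off them.

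The Dcn type was the larger kind in the metastasis library and the smaller kind in the naive library. It held 111 of 168 members with metastasis, 66.1% (58.4 to 73.2%), and 73 of 163 naive members, 44.8% (37.0 to 52.8%). The Slc47a1 type held 57 metastasis members, 33.9% (26.8 to 41.6%), and 90 naive members, 55.2% (47.2 to 63.0%). These intervals did not overlap. Median depth was 2525 and 2103 UMIs in the Dcn type and 3047 and 2764 UMIs in the Slc47a1 type, in the metastasis and naive libraries. The Dcn type held 336163 of 545410 UMIs with metastasis and 194678 of 623811 UMIs in the naive library. A gene found only in the Dcn type would therefore stand higher over all fibroblasts with metastasis at an equal level within that type. A level over all fibroblasts reflects this mix as well as levels within a kind. Values within a kind are given for many of the lists and genes named.

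The label was checked against markers that the rule did not use, and the Dcn type carried them. Pdgfra, the receptor for platelet-derived growth factor that marks fibroblasts in most tissues, stood at 351 CPM in the metastasis Dcn type and 462 in the naive one, and at 71.7 and 30.3 in the Slc47a1 type. Lama1, a laminin chain of the pial basement membrane, gave 33 metastasis and 28 naive UMIs, all of them in the Dcn type. Aldh1a2, which makes retinoic acid in the meninges, gave 168 and 61 UMIs in the Dcn type and 0 and 1 UMI in the Slc47a1 type. Slc22a6, an organic anion transporter of the arachnoid, gave 64 and 54 UMIs in the Dcn type and 0 and 4 UMIs in the Slc47a1 type. Genes of pia and of arachnoid were thus both found in the Dcn type.

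Further genes followed the same side. Vtn, which encodes the adhesion protein vitronectin, stood at 2996 and 4227 CPM in the Dcn type and at 43.0 and 4.66 in the Slc47a1 type. Slc7a11, the cystine-glutamate exchanger, stood at 1767 and 2116 against 4.78 and 14.0. Apod, the lipid carrier apolipoprotein D, stood at 12571 and 14429 against 550 and 536. Ptgds, which makes prostaglandin D2 and is abundant in the arachnoid, stood at 33817 and 36034 in the Dcn type, while free RNA carried 5427 and 5756. In the Slc47a1 type Ptgds stood at 1085 with metastasis and 7231 in the naive library, where 1 barcode of 27587 UMIs held 1579 of the 3103 UMIs. Free RNA here means barcodes with 10 to 100 UMIs, whose content comes from transcripts outside cells.

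The Slc47a1 type carried general fibroblast genes, with Pdgfra and several others lower than in the Dcn type. A list of 12 general fibroblast genes, 0 of them in the rule, summed to 3293 CPM with metastasis and 3311 in the naive library in the Slc47a1 type, to 4379 and 3796 in the Dcn type, and to 280.3 and 284 in free RNA. In the Slc47a1 type 12 of these genes stood above free RNA with metastasis and 11 in the naive library. A list of dura markers stood at 18328 and 15888 in the Slc47a1 type and 7261 and 4602 in the Dcn type. Mgp alone gave 15264 and 12581 of this sum in the Slc47a1 type and 6295 and 3657 in the Dcn type. Arachnoid barrier markers (1577 and 1811 against 577 and 457) and choroid plexus stroma markers (1491 and 1960 against 494 and 396) also stood higher in the Slc47a1 type. The lists of pia, arachnoid and adventitial markers stood higher in the Dcn type. Col1a2, a chain of type I collagen and the member gene shared by both kinds, stood at 1184 and 1058 CPM in the Dcn type and at 1071 and 874 in the Slc47a1 type. Col6a1, a chain of type VI collagen, stood at 573 and 576 in the Slc47a1 type and at 300.4 and 134 in the Dcn type. Dcn itself reached 28.7 and 46.6 in the Slc47a1 type, with 7.79 and 22.1 in free RNA, and Lum gave no UMI there, which with a floor of 3 UMIs allows up to 14.3 and 6.99 CPM. Since Col1a2, Dcn and Lum belong to the rule, their levels are a description, and these barcodes are called by Slc47a1 throughout.

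Several genes of the Slc47a1 type stood at close levels in both libraries, while Bche and Adgrv1, given further on, stood lower there with metastasis. Ccn3, a matricellular protein, stood at 1553 CPM with metastasis and 1566 in the naive library. Slc4a10, a sodium-bicarbonate transporter, stood at 1697 and 1804, and Slc26a7, an anion exchanger, at 717 and 608. Cdh1 (E-cadherin), an adhesion protein of epithelia and of the arachnoid barrier layer, stood at 277 and 231 and gave 4 and 0 UMIs in the Dcn type. Abcg2, an efflux pump of barrier cells, stood at 578 and 764 in the Slc47a1 type and 80.3 and 77.1 in the Dcn type. Mgp (matrix Gla protein), an inhibitor of calcification, was found in both kinds, at 15264 and 12581 in the Slc47a1 type and 6295 and 3657 in the Dcn type. A single Dcn type barcode of 6787 UMIs held 900 of the metastasis Mgp UMIs, and without it the metastasis Dcn type stood at 3692.

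**Figure D2:**
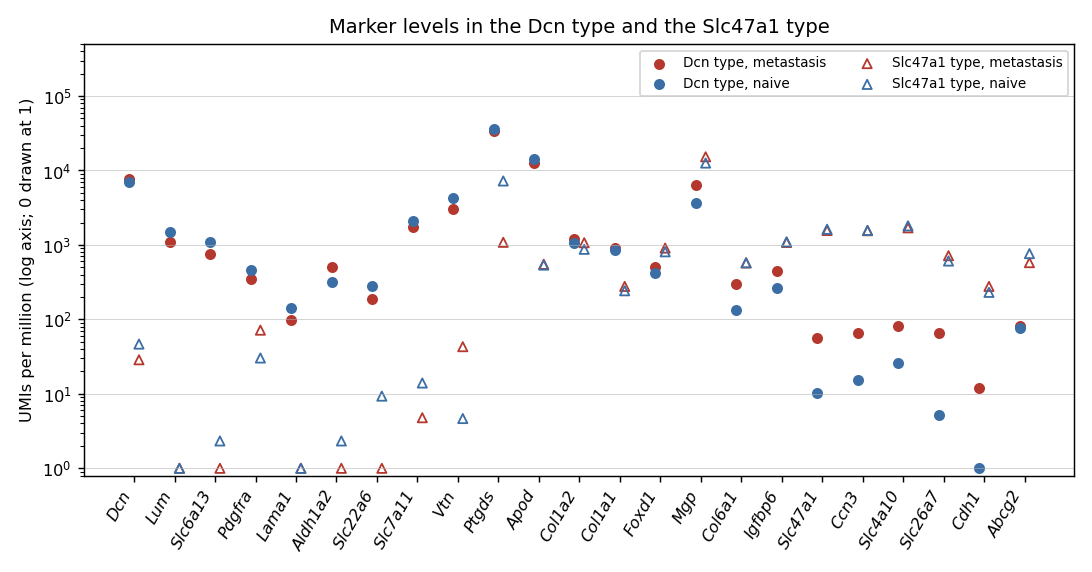
CPM (log axis, with 0 drawn at 1) of 23 genes in the summed Dcn type (filled circles) and Slc47a1 type (open triangles) of the metastasis (red) and naive (blue) library. Genes from Dcn to Apod stood higher in the Dcn type and those from Slc47a1 to Abcg2 higher in the Slc47a1 type in both libraries, while Col1a2 lay close together in all 4 sums.

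Foxd1, a forkhead transcription factor, was found in both kinds and hardly in free RNA: 503 and 426 CPM in the Dcn type, 908 and 809 in the Slc47a1 type, and 3.89 and 18.4 in free RNA. The 20 genes with the highest fold over all other kept barcodes were Dcn, Mgp, Igfbp6, Slc47a1, Ccn3, Foxd1, Lum, Col1a2, Col1a1, Col6a1, Slc6a13, Efemp1, Islr, Serping1, Mrc2, Thbd, Rspo3, Sh3pxd2a, Slc26a7 and Slc26a2. Since the rule picked these barcodes, this order is a description and no finding. Igfbp6, a binding protein of insulin-like growth factor 2, gave 691 CPM (623 to 765) with metastasis and 842 (771 to 917) in the naive library.

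Most measured interferon-response, class I antigen-presentation, chemokine and complement genes stood at least 2-fold higher in the fibroblasts of the metastasis library. Of the lists of other cells, so did 9 of 12 microglia and macrophage genes and 5 of 6 melanoma genes, while 7 of 10 ependymal genes stood at least 2-fold lower. Genes with at least 20 UMIs over both libraries were compared, and a gene was called higher or lower when its summed level differed at least 2-fold. Of 8100 such genes, 444 (5.48%) were higher with metastasis and 314 (3.88%) were lower, 9.36% in either direction, and the median log2 ratio of metastasis over naive was 0.01. The interferon, class I, chemokine and complement lists held 56 of the 444 higher genes. Within the Dcn type 398 of 4933 genes (8.07%) were higher and 209 (4.24%) lower. Within the Slc47a1 type 183 of 5507 genes (3.32%) were higher and 255 (4.63%) lower, 7.95% in either direction. Calls in either direction made up 12.3% in the Dcn type.

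**Figure D3:**
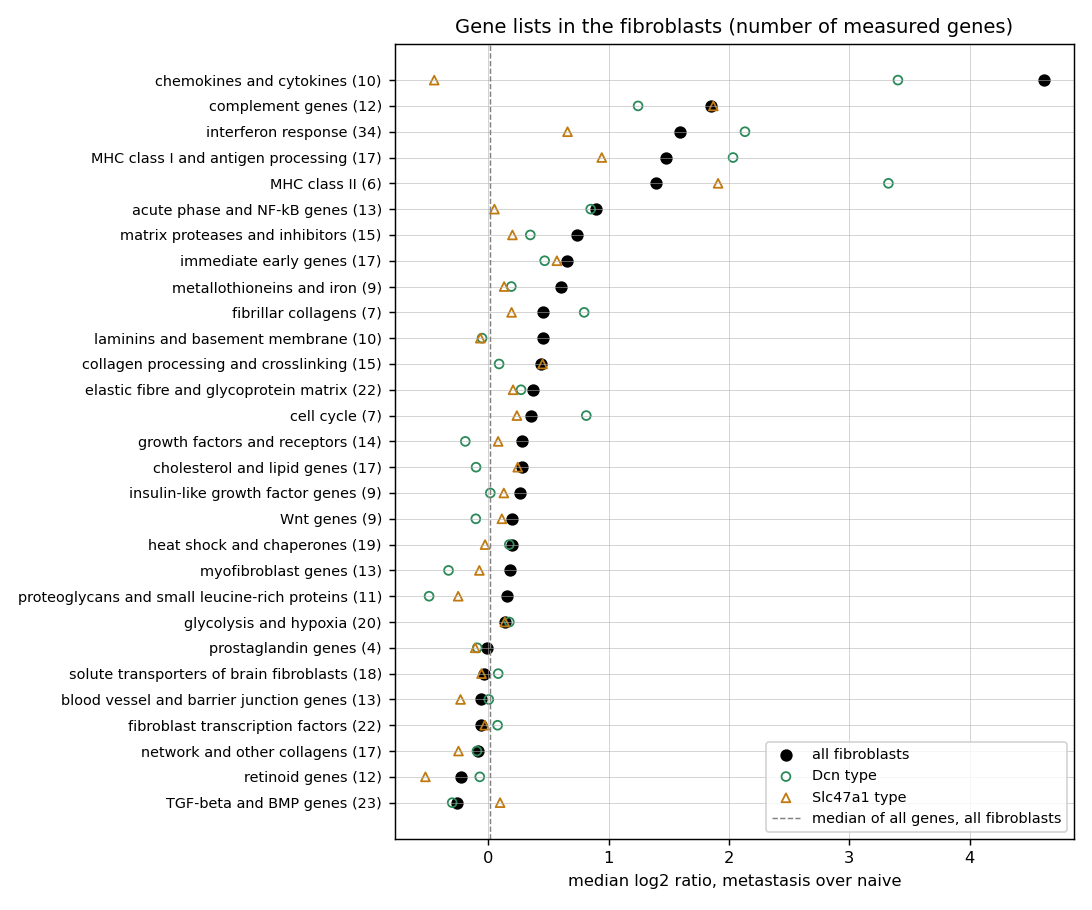
Median log2 ratio of metastasis over naive for each of 29 gene lists, over the measured genes of the list (their number in parentheses). Black points are all fibroblasts, green circles the Dcn type and orange triangles the Slc47a1 type; the dashed line is the median of all 8100 genes. Chemokines, complement, interferon-response and both MHC lists stand to the right, and the chemokine list of the Slc47a1 type stands at -0.45.

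The interferon-response list had 26 of 34 measured genes at least 2-fold higher with metastasis and 0 lower, with a median log2 ratio of 1.59. Over all fibroblasts, all 26 stood above their level in free RNA in the library where they were higher. In the Dcn type 24 of 30 measured genes were higher and 0 lower, with a median of 2.13. In the Slc47a1 type 7 of 18 were higher and 0 lower, with a median of 0.66. Summed over its 44 genes, the list stood at 10801 CPM in the metastasis Dcn type and 4243 in the naive one, and at 2786 and 2025 in the Slc47a1 type. Free RNA carried 3854 with metastasis and 1478 in the naive library, so the metastasis Slc47a1 type lay below it.

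Barcodes spread widely around these sums. Per barcode of the Dcn type, the list ranged from 0 to 47052 CPM with a median of 4907 in the metastasis library, and from 0 to 18245 with a median of 3172 in the naive library. The metastasis range extended further up, and the ranges overlapped. In the Slc47a1 type the list ranged from 0 to 9986 with a median of 2201 with metastasis, and from 0 to 8669 with a median of 1420 in the naive library. These ranges overlapped over nearly their whole length.

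Among the transcription factors of the response, Irf1, which interferon gamma induces, gave 39 metastasis and 15 naive UMIs, a log2 ratio of 1.57 (95% exact interval 0.68 to 2.54), which was -0.04 once each barcode was thinned at random to 1000 UMIs. Irf7, which amplifies the type I response, gave 43 and 5 UMIs, a log2 ratio of 3.30 (1.97 to 4.99). Stat2 did not reach 2-fold, at 22 and 16 UMIs.

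The effector genes included several that are induced by interferon gamma. Gbp2, a guanylate-binding GTPase, stood at 385 CPM (335 to 441) with metastasis and 44.9 (29.8 to 64.9) in the naive library. In the Dcn type its log2 ratio was 4.26 (3.12 to 5.73), and in the Slc47a1 type it was 0.04 (-1.16 to 1.14). Iigp1, an immunity-related GTPase that attacks vacuoles of pathogens, stood at 352 (304 to 405) and 32.1 (19.6 to 49.5), with log2 ratios of 3.52 (2.56 to 4.67) in the Dcn type and 1.38 (0.14 to 2.67) in the Slc47a1 type, the latter 0.41 without 1 metastasis barcode. Zbp1, a sensor of nucleic acids, gave 47 and 3 UMIs, of which 44 and 0 were in the Dcn type.

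Antiviral membrane proteins and Isg15 followed, with larger ratios in the Dcn type than in the Slc47a1 type for Ifitm3 and Isg15. Ifitm3, which blocks virus entry, stood at 2197 CPM and 761, a log2 ratio of 1.53 (1.37 to 1.68), with 1.21 in the Dcn type and 0.57 in the Slc47a1 type. Ifitm1, its relative, gave 483 and 141 UMIs, and 473 of the metastasis UMIs were in the Dcn type. Bst2 (tetherin), which holds budding virus at the membrane, gave 167 and 35 UMIs, a log2 ratio of 2.45 (1.92 to 3.02). Isg15, a ubiquitin-like protein, had a log2 ratio of 2.44 in the Dcn type and -0.84 in the Slc47a1 type, where it gave 9 and 33 UMIs. Ifi27, an interferon-induced mitochondrial protein, gave 194 and 217 UMIs and did not differ 2-fold.

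Of the measured genes for class I molecules and antigen processing, 13 of 17 were higher and 0 lower, with a median log2 ratio of 1.48. Over all fibroblasts, 12 of the 13 stood above free RNA. The median was 2.03 in the Dcn type (11 of 14 higher) and 0.94 in the Slc47a1 type (4 of 11 higher). Summed, the class I list stood at 5685 CPM in the metastasis Dcn type and 2246 in the metastasis Slc47a1 type. Free RNA of that library carried 3352, so the Slc47a1 type lay below it. B2m, the light chain of every class I molecule, stood at 1078 CPM and 231, a log2 ratio of 2.22 (1.96 to 2.50), with 2.23 in the Dcn type and 1.09 in the Slc47a1 type, the latter 0.93 without 1 metastasis barcode. H2-K1, a classical heavy chain, stood at 977 and 240, a log2 ratio of 2.02 (1.76 to 2.29). Psmb8, a catalytic subunit of the immunoproteasome, gave 101 and 16 UMIs, and Tap1, a subunit of the peptide transporter into the endoplasmic reticulum, gave 47 and 7 UMIs. Tap1 was spread over 34 metastasis barcodes with at most 4 UMIs in any of them.

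Because free RNA of the metastasis library was itself rich in class I transcripts (997 CPM of B2m, against 114 in the naive library), shares of barcodes were set beside those of another class. At least 1 B2m UMI was found in 72.6% of metastasis and 44.2% of naive fibroblasts. After thinning each barcode to 1000 UMIs, which left out none because every kept barcode had at least that many, these shares were 45.8% and 21.5% in fibroblasts and 15.3% and 4.31% in oligodendrocytes. For Gbp2 the thinned shares were 14.3% and 0.613% in fibroblasts and 1.68% and 0.128% in oligodendrocytes. Median depth in the oligodendrocytes was 2826 and 3057 UMIs. With the estimated free RNA subtracted, the median log2 ratio was 1.495 for the interferon list and 1.48 for the class I list. The fraction subtracted was 0.174 with metastasis and 0.247 in the naive library, each a median of estimates from markers of other cells. These estimates ranged from 0.060 to 0.534 and from 0.031 to 0.336, so the subtraction is uncertain.

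The upstream sequences of 3 of these genes are shown because the members of the interferon and class I lists were higher together and because these sequences hold a match to the interferon-stimulated response element. They run 5′ to 3′ on the gene's own strand (RefSeq starts, build GRCm38.p6), with matches in capitals: Cxcl10 at chr5:92348890-92349139 (minus strand), Bst2 at chr8:71537473-71537722 (minus strand) and B2m at chr2:122147437-122147685 (plus strand).
Cxcl10: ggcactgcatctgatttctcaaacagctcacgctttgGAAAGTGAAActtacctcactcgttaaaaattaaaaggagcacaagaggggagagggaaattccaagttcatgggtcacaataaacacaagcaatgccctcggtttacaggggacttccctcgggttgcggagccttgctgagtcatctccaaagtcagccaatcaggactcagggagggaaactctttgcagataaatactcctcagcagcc
Bst2: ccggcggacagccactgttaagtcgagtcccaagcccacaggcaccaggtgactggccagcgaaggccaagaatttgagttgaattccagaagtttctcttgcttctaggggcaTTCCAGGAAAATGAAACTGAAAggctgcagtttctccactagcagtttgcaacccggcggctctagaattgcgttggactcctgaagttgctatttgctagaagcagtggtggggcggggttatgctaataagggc
B2m: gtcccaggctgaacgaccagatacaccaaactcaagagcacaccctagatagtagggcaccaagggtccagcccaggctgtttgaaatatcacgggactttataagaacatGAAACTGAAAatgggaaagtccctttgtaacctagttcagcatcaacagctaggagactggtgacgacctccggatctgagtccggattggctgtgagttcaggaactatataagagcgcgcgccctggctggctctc

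The motif searched was GAAA, 2 bases of any kind and GAAA again, on both strands, which 969 of 32536 windows of 250 bases in the RefSeq table held (2.98%). The match began 213 bases before the start of Cxcl10 and 139 bases before that of B2m, and Bst2 held 2 overlapping matches. A second motif, TTCNNNGAA, known as the gamma-activated sequence, is palindromic and was held by 2291 windows (7.04%). Its match in Bst2 overlaps the first motif, so the capitals there mark both. Of the 12 genes with the highest ratios, 6 were in the table: the first motif was present in 3 (Cxcl10, Gbp2 and Bst2) and the second in 2 (Psmb8 and Bst2). Ccl8 and Tap1 held neither. Among further genes searched besides B2m, Isg15 and Mmp13 held the first motif. Ifitm1, Ifitm3, Irf7, H2-K1, Cxcl9 and Mmp3 held neither motif, so the printed sequences do not stand for all genes of the lists. A match is a stretch of letters and was not tested as a binding site.

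Transcripts of Cxcl10, Ccl2, Ccl7 and Ccl8 came mostly from a few metastasis barcodes. Cxcl10, a chemokine for T cells that interferon induces, gave 251 UMIs with metastasis and 2 in the naive library, 460 and 3.21 CPM, a log2 ratio of 7.17 (5.30 to 10.22). Ccl2, which draws monocytes, gave 191 and 2 UMIs, a log2 ratio of 6.77 (4.90 to 9.83). Ccl7, its neighbour on chromosome 11 with a like function, gave 132 and 0 UMIs, and Ccl8 gave 70 and 0. Against a floor of 3 UMIs over all naive fibroblasts, Ccl7 was at least 50.3-fold and Ccl8 at least 26.7-fold higher. The Dcn type held 247, 186, 129 and 69 of these metastasis UMIs, and free RNA of that library carried 125, 164, 54.5 and 70.1 CPM of the 4 genes. Pla1a, a phospholipase that acts on phosphatidylserine, gave 67 and 3 UMIs, the metastasis UMIs in 19 barcodes. The 14 chemokine-rich barcodes described next held 47 of the 67, at 704 CPM against 41.8 in the other metastasis fibroblasts.

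The number of barcodes behind these sums was small. Cxcl10 was present in 19 metastasis barcodes, Ccl2 in 20, Ccl7 in 14 and Ccl8 in 6. Of the 574 UMIs of Cxcl10, Ccl2 and Ccl7, 544 were held by 14 barcodes with at least 5 such UMIs, 13 of them of the Dcn type, and 289 by a single barcode of 12433 UMIs. That barcode also held 90 of the 117 metastasis UMIs of Ly6a, a surface protein of stem and stromal cells, and 42 of the 70 of Ccl8. In the naive library 3 barcodes held 4 such UMIs, none with 5 or more. The chemokine list had 7 of 10 measured genes higher and 0 lower, with a median log2 ratio of 4.61. Over all fibroblasts, 5 of the 7 higher genes stood above free RNA. Without the 14 barcodes the median of the list was 0.71, and in the Slc47a1 type it was -0.45 over 3 measured genes.

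The chemokine-rich barcodes also stood high in the interferon list. Summed, the 14 barcodes carried 24269 CPM of the list, and the other 154 metastasis fibroblasts 5419, where the naive fibroblasts carried 2717. Within the 14 the list ranged from 1667 to 47052 with a median of 21631, and within the other 154 from 0 to 35418 with a median of 3256. The ranges overlapped, and 7 of the 154 stood above 20000, 4 of them without a UMI of these chemokines. The 14 held 63.8% of the metastasis UMIs of Gbp2, 68.8% of Iigp1 and 35.5% of B2m, from 66751 of 545410 UMIs. The microglia and macrophage marker list stood at 1303 CPM in the 14 and 1912 in the other 154, and at least 3 of its UMIs were found in 8 of the 14 and 67 of the 154.

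**Figure D4:**
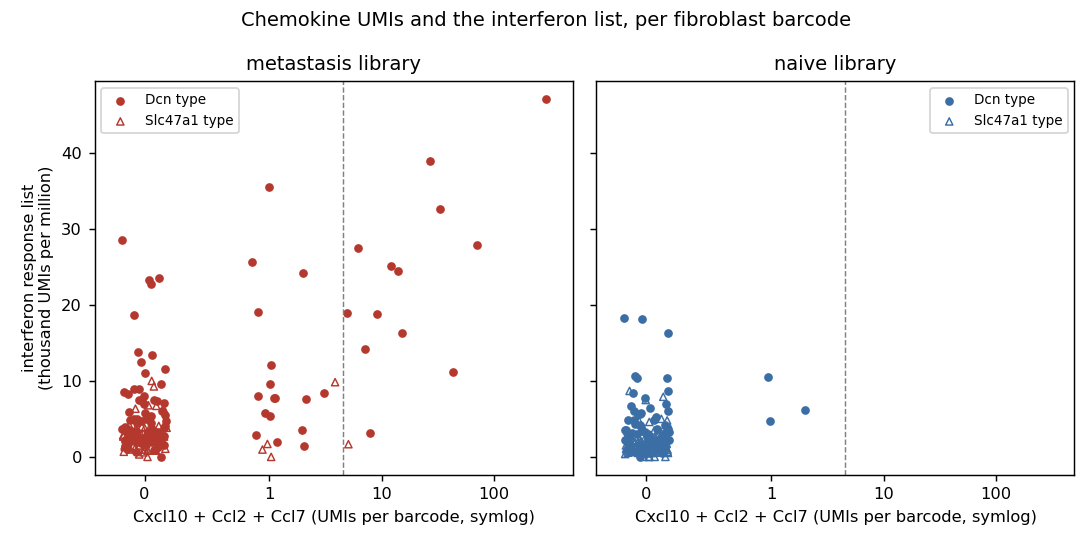
Each point is 1 fibroblast barcode: UMIs of Cxcl10, Ccl2 and Ccl7 on the x axis (linear below 1, logarithmic above, with a small scatter) and the interferon-response list on the y axis, in units of 1000 CPM. The 14 metastasis barcodes right of the dashed line have at least 5 chemokine UMIs, and no naive barcode lies there.

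Without the 14 barcodes the list medians were lower but stayed on the same side. The interferon median was 1.15, the class I median 1.16 and the complement median 1.42. In the Dcn type alone, with 98 metastasis and 73 naive barcodes left, 10 of 20 measured interferon genes were higher and 0 lower (median 1.03), where 6.51% of 4483 genes were higher and 3.9% lower. Of the class I genes, 8 of 11 were higher and 0 lower (median 1.13). Leaving these barcodes out removes high values from the metastasis library only, so these medians are a lower reading. B2m stood at 792 CPM in the other 154 metastasis fibroblasts and Ifitm3 at 1692, above the naive 231 and 761. Free RNA of the metastasis library carried 997 CPM of B2m, more than these 154 barcodes, and 938 of Ifitm3.

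Markers of other cells differed between the libraries as well. The 14 microglia and macrophage markers gave 1837 CPM in metastasis fibroblasts and 524 in naive ones, below free RNA in both libraries (10138 and 1562). At least 3 such UMIs were found in 75 metastasis and 18 naive members, with a range over barcodes of 0 to 289 and 0 to 86 UMIs. In the Dcn type 7 of 11 measured markers of this list were at least 2-fold higher and 1 lower, with a median log2 ratio of 1.52. In the Slc47a1 type 9 of 10 were higher and 0 lower, with a median of 2.60. Mrc1 and Pf4, markers of border macrophages, gave 3 and 4 UMIs with metastasis and 0 in the naive library. Without barcodes with 3 or more such UMIs the median log2 ratio was 1.42 for the interferon list, 1.33 for class I, 1.39 for complement and 1.15 for chemokines. The 4 melanoma genes gave 202 and 7 UMIs in the members, and the part of melanoma RNA in the lists was not tested. A naive Dcn type barcode of 6923 UMIs held 2930 haemoglobin UMIs, and without it the interferon median was 1.57 and the class I median 1.46. Mog, Mag, Mobp and Ermn, genes of myelinating oligodendrocytes, gave at least 3 UMIs in 20 metastasis and 12 naive members. The full list of 10 oligodendrocyte markers stood at 5825 and 3463 CPM and gave at least 3 UMIs in 109 and 103 members, below the 10819 and 11286 CPM of free RNA. Ependymal markers stood at 631 and 1209 CPM, with a median log2 ratio of -1.39, and at 3107 and 4783 in free RNA. Olfactory ensheathing markers, which include Apod, stood at 11360 and 6571 over all fibroblasts and at 17221 and 17249 within the Dcn type. The part of these other cells in the differences was not tested beyond the sums without barcodes given here.

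The complement list had 10 of 12 measured genes higher and 0 lower, with a median log2 ratio of 1.85, which was 1.04 after thinning each barcode to 1000 UMIs. Of these 10 genes, 7 stood above free RNA; C1qa, C1qb and C1qc, which microglia make, did not, with C1qa at 303 and 73.7 CPM in the fibroblasts (199 with metastasis without 1 barcode) and 1483 and 254 in free RNA. C3, the central component of all complement pathways, gave 39 and 2 UMIs, a log2 ratio of 4.48 (2.53 to 7.57). C4b, a component of the classical pathway, gave 49 and 9 UMIs. Serping1, the inhibitor of C1, stood at 666 and 399 CPM without reaching 2-fold.

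For MHC class II, which presents antigen to helper T cells, 3 of 6 measured genes were higher and 0 lower, and none of those 3 stood above free RNA. Cd74, the invariant chain, stood at 182 CPM in metastasis fibroblasts and 459 in free RNA of that library. Among the acute phase and NF-kB genes 6 of 13 were higher and 0 lower, with a median of 0.90. The median was 0.85 in the Dcn type (4 of 12 higher) and 0.05 in the Slc47a1 type (1 of 7 higher). Socs3, a feedback inhibitor of cytokine signalling, gave 54 and 17 UMIs, a log2 ratio of 1.86 (1.05 to 2.74). Icam1, an adhesion molecule for leukocytes, gave 39 and 16 UMIs.

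Collagens, laminins and small proteoglycans together had 7 of 45 measured genes higher and 1 lower, 17.8% in either direction beside 9.36% of all genes, with fewer of the higher calls inside the types. The fibrillar collagens had 2 of 7 measured genes higher and 0 lower, with a median log2 ratio of 0.46. Within the Dcn type their median was 0.80, with 1 of 5 measured genes higher and 0 lower. Within the Slc47a1 type it was 0.19, with 0 of 5 higher and 1 lower. Col1a1 stood at 673 CPM (606 to 745) and 434 (384 to 489), but within the Dcn type at 919 and 858 and within the Slc47a1 type at 277 and 242. Col3a1, the chain of type III collagen, gave 257 and 127 UMIs, a log2 ratio of 1.21 (0.90 to 1.53) over all fibroblasts and 0.80 (0.41 to 1.19) in the Dcn type. The barcode richest in Mgp held 57 of its metastasis UMIs, and without it the ratio was 0.87 over all fibroblasts, under 2-fold. Col5a1, a chain that starts fibrils, gave 31 and 11 UMIs, with a log2 ratio of 1.69 over all fibroblasts and 1.21 in the Dcn type. The network collagens (3 of 17 higher, 1 lower), laminins (1 of 10 higher, 0 lower) and small proteoglycans (1 of 11 higher, 0 lower) had medians of -0.09, 0.45 and 0.15. Within the Dcn type these medians were -0.09, -0.05 and -0.49 and within the Slc47a1 type -0.25, -0.07 and -0.25, so those of laminins and proteoglycans changed sign. Small proteoglycans had 0 of 10 genes higher and 2 lower in the Dcn type.

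Dcn, Lum and Slc6a13 chose the members and define the Dcn type, so their values are a description. Over all fibroblasts Dcn stood at 4787 CPM with metastasis and 2238 in the naive library, a log2 ratio of 1.10. Within the Dcn type it stood at 7749 and 7068, a log2 ratio of 0.13 (0.04 to 0.23). Lum was higher over all fibroblasts (673 and 466) and lower within the Dcn type (1092 and 1495). Slc6a13 showed the same pattern, at 464 and 343 over all fibroblasts and 753 and 1094 within the Dcn type.

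Genes of activated, contractile fibroblasts did not reach 2-fold over all fibroblasts. Of 13 measured myofibroblast genes 0 were higher and 0 lower, with a median of 0.18; with 9.36% of all genes called, a list of this size would hold few calls in any case. Within the Dcn type 0 of 12 were higher and 1 lower, with a median of -0.33. Acta2 (smooth muscle actin) gave 6 UMIs in each library, and Postn (periostin) gave 9 and 13. Fap, the fibroblast activation protein, gave 11 and 17 UMIs, and Col12a1 gave 131 and 210. Tnc gave 2 and 1 UMI, and Lrrc15, a marker of tumour myofibroblasts elsewhere, gave 0 in both, which allows up to 5.50 and 4.81 CPM. In the TGF-beta and BMP list 2 of 23 measured genes were higher and 0 lower, near the share of all genes, with a median of -0.26 that was -0.30 in the Dcn type and 0.10 in the Slc47a1 type.

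Matrix proteases and their inhibitors had 6 of 15 measured genes higher and 1 lower, with a median of 0.74, which was 0.35 in the Dcn type and 0.20 in the Slc47a1 type. Timp1, an inhibitor of matrix metalloproteases, gave 120 and 41 UMIs in 42 and 28 barcodes, a log2 ratio of 1.74 (1.22 to 2.29). The 14 chemokine-rich barcodes held 57 of the 120 metastasis UMIs, at 854 CPM against 132 in the other metastasis fibroblasts. In the Dcn type Timp1 gave 82 UMIs with metastasis and 0 in the naive library. Mmp3, a protease of broad range, gave 46 and 0 UMIs and was at least 17.5-fold higher, and Mmp13, a collagenase, gave 24 and 0 and was at least 9.15-fold higher. These UMIs came from 5 and 3 barcodes, with 35 and 19 of them in 1 barcode each, and the 14 chemokine-rich barcodes held 3 and 4. Without the top barcode of each, the log2 ratio against the floor was 2.08 for Mmp3 and 0.94 for Mmp13. Adamts5, which cleaves proteoglycans, was the gene called lower, at 28 and 66 UMIs, with a log2 ratio of -1.04 that was -0.97 without 1 naive barcode.

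Among the glycoproteins, 5 of 22 measured genes were higher and 1 lower, with a median of 0.38. Within the Dcn type 3 of 22 were higher and 2 lower, with a median of 0.27. Within the Slc47a1 type 0 of 15 were higher and 2 lower, with a median of 0.21. Spp1 (osteopontin), a secreted ligand of integrins, gave 810 and 255 UMIs, a log2 ratio of 1.86 (1.66 to 2.07). A pair of Dcn type barcodes held 249 and 173 of the metastasis UMIs, while no naive barcode held more than 15. The ratio of Spp1 therefore rests in large part on this pair, which its interval for counting error does not cover. No ratio without the pair or within the types is given here. In a separate list of insulin-like growth factor genes, 1 of 9 measured genes was higher and 0 lower, with a median of 0.26. Igfbp3, a binding protein in that separate list, gave 67 and 0 UMIs in 8 barcodes. The barcode richest in chemokines held 33 of these UMIs, and Igfbp3 did not exceed free RNA (123 against 125 CPM).

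Among the transporters 2 of 18 measured genes were higher and 1 lower, with a median of -0.04. Within the Dcn type 5 of 16 were higher and 0 lower, beside 8.07% of all genes higher there, with a median of 0.08, and in the Slc47a1 type 0 of 9 were higher or lower. Slc47a1 stood at 634 and 1121 CPM over all fibroblasts, and at 1563 and 1624 within the Slc47a1 type. Slc38a2, a transporter of neutral amino acids, stood at 2629 and 4375 over all fibroblasts and at 5673 and 6101 within the Slc47a1 type. Slc7a11 stood at 1091 and 670 over all fibroblasts and at 1767 and 2116 within the Dcn type. Abcg2 was the transporter called lower, with a log2 ratio of -1.02 (-1.31 to -0.74), but 0.06 in the Dcn type and -0.40 in the Slc47a1 type, and -0.93 over all fibroblasts without 1 naive barcode.

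Retinoid genes had 2 of 12 measured genes higher and 0 lower, with a median of -0.22. Within the types lower calls outnumbered higher ones, with 1 of 9 higher and 3 lower in the Dcn type and 0 of 10 higher and 3 lower in the Slc47a1 type (median -0.52), where 4.24% and 4.63% of all genes were lower. The list includes Ttr and Rarres2, also markers of choroid plexus epithelium and ependymal cells, and free RNA carried 79897 and 217941 CPM of it. Rbp4, a gene of the list, had a log2 ratio of -1.15 in the Dcn type, which was -0.65 without 1 naive barcode. In the Slc47a1 type 1 naive barcode held 47 of its UMIs. The part of other cells in these calls was not tested. Aldh1a2 stood at 308 CPM (263 to 358) and 99.4 (76.2 to 127), and within the Dcn type at 500 and 313, a log2 ratio of 0.67 (0.24 to 1.12). The growth factors and receptors had 3 of 14 higher and 2 lower, with a median of 0.28 that was -0.19 in the Dcn type and 0.08 in the Slc47a1 type. Csf1, the growth factor of macrophages and microglia, gave 51 and 25 UMIs, a log2 ratio of 1.22 (0.51 to 1.97) with 1.21 in the Dcn type. Fgf1, a broad fibroblast growth factor, gave 22 and 3 UMIs. Among the transcription factors 1 of 22 was higher and 2 were lower, with a median of -0.06: Foxd1 stood at 658 and 689, and Foxp1 at 534 and 685. Within the Dcn type 1 of 16 was higher and 0 lower, and within the Slc47a1 type 0 of 19 were higher and 3 lower.

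Immediate early genes, which cell dissociation can switch on, had 3 of 17 measured genes higher and 0 lower, with a median of 0.66. In the Slc47a1 type 6 of 16 were higher and 0 lower, beside 3.32% of all genes and next to 7 of 18 interferon genes there, and in the Dcn type 3 of 14. Fos gave 560 and 306 UMIs, a log2 ratio of 1.07 (0.86 to 1.27), with 0.33 in the Dcn type and 1.39 in the Slc47a1 type, and 0.99 over all fibroblasts without 1 metastasis barcode. The mitochondrial share had a median of 3.71% with metastasis and 5.78% in the naive library. The part of dissociation and cell handling in the differences was not tested.

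The genes lowest with metastasis were mostly genes of the Slc47a1 type. The 12 with the lowest ratios were Adgrv1, Kcne4, Bche, Thbs1, Dnajc5b, Irs1, Cryl1, Psd3, Tmem223, Car14, Snhg20 and Mrln. Bche (butyrylcholinesterase) gave 74 and 257 UMIs, of which 64 and 255 were in the Slc47a1 type, where its log2 ratio was -0.96 (-1.38 to -0.56). Adgrv1, a large adhesion receptor, gave 20 and 86 UMIs, with -1.20 (-2.03 to -0.46) in the Slc47a1 type. Rspo3, which enhances Wnt signalling, was lower over all fibroblasts at 491 and 1098 CPM and stood at 1147 and 1578 in the Slc47a1 type; its log2 ratio of -1.16 was -0.99 without 1 naive barcode. Thbs1 (thrombospondin 1), a matrix protein that activates TGF-beta, gave 22 and 82 UMIs, 31 of the naive ones in a single barcode, without which its log2 ratio of -1.70 was -1.08. Irs1, an adaptor of the insulin receptor, gave 17 and 61 UMIs, with at most 2 and 7 in any barcode. Cryl1, Psd3 and Tmem223 had log2 ratios of -1.60, -1.60 and -1.33 in the Dcn type and -1.32, -1.17 and -1.25 in the Slc47a1 type. Over all fibroblasts they gave 16 and 55, 16 and 51, and 20 and 60 UMIs, so these ratios rest on few UMIs.

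**Figure D5:**
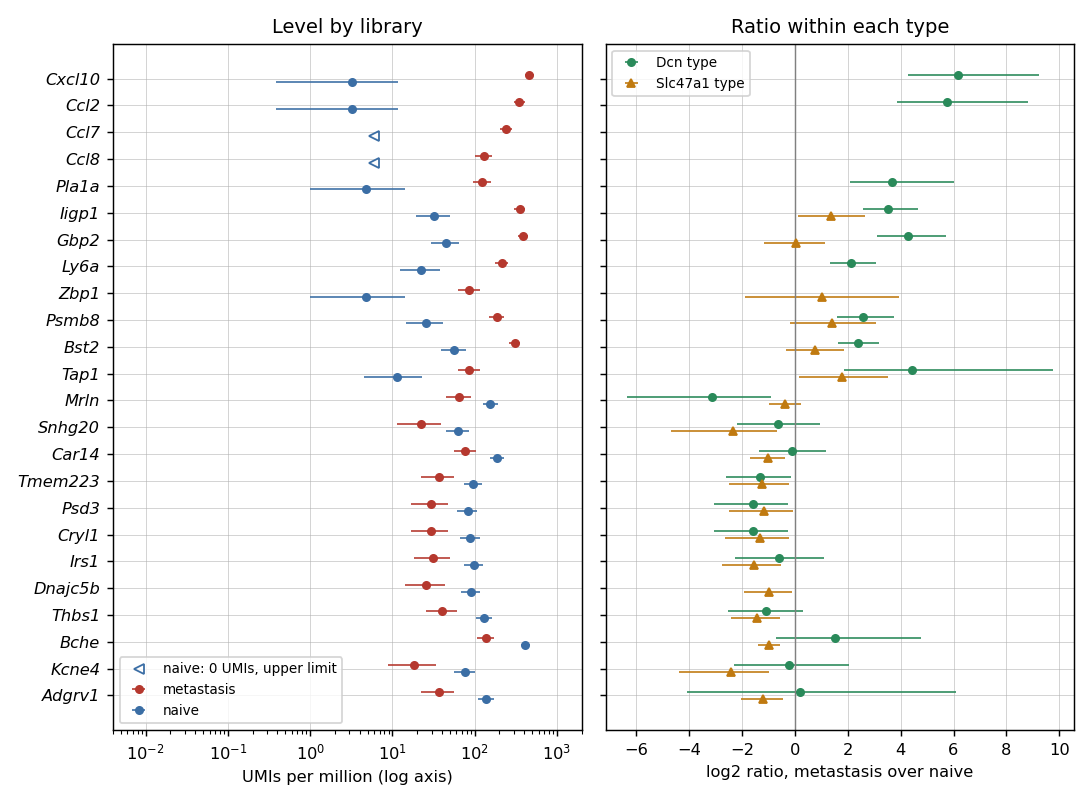
Left, CPM (log axis) of the 12 genes with the highest and the 12 with the lowest ratios in all fibroblasts, with 95% exact Poisson intervals, for metastasis (red) and naive (blue); open arrowheads are upper limits of genes with 0 UMIs. Right, log2 ratio of metastasis over naive with 95% exact intervals in the Dcn type (green circles) and the Slc47a1 type (orange triangles), drawn where both libraries had UMIs; Gbp2 stands at 4.26 in the Dcn type and 0.04 in the Slc47a1 type.

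Mural and endothelial cells, chosen by like rules (108 and 104 mural, 295 and 327 endothelial barcodes), were set beside the fibroblasts as the nearest vessel-associated cells. The interferon list stood at 4444 CPM with metastasis and 3780 in the naive library in mural cells, and at 5327 and 4505 in endothelial cells, against 7726 and 2717 in fibroblasts. The order depends on the mix of types: the naive Dcn type, at 4243, stood above the naive mural cells, and the metastasis Slc47a1 type, at 2786, below both other classes. Class I genes stood at 2151 and 1676 in mural cells and at 3135 and 2062 in endothelial cells, against 4366 and 1364 in fibroblasts. Complement genes stood at 907 and 699 in mural cells and at 496 and 581 in endothelial cells, against 2635 and 994. With 1 library per group these contrasts between classes were not tested.

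Single genes did not all follow that order. Ccl2 stood at 366 and 0 CPM in mural cells and at 350 and 3.21 in fibroblasts, but at 10.2 and 1.06 in endothelial cells. Cxcl10 stood at 110 and 0 in mural cells and at 45.2 and 4.26 in endothelial cells, below the 460 of the metastasis fibroblasts. Gbp2 stood at 38.0 and 43.5 in mural cells and at 35.0 and 29.8 in endothelial cells. Igfbp3 stood at 2080 and 7.45 in endothelial cells and at 488 and 20.1 in mural cells. Cxcl12, a chemokine that retains leukocytes and progenitors, stood at 729 and 699 in the Dcn type, at 178 and 1348 in mural cells and at 330 and 1388 in endothelial cells.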

How the data were processed

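Single-cell suspensions of 2 pools of 3 mouse brains, enriched with ACSA-2 beads, were sequenced as 10x 3' libraries (version 3 chemistry, per the labels' protocols). The deposited values are raw UMI counts per gene and barcode, made by the authors with STARsolo on GRCm38 per the submitters' processing notes; the annotation, filters and STARsolo version are not given in the sources used here. The 2 libraries held 89193669 (metastasis) and 69445557 (naive) UMIs over 55401 gene rows. A barcode was kept if it held 1000 or more UMIs from 500 or more genes, with a mitochondrial share of 20% or less, and fibroblasts were chosen among them by the rule given above. Doublets were not removed; scrublet called 0 doublets in the metastasis library, where it had not worked, and left 152 naive members.

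UMIs were summed per gene over the members of a library and scaled to 1000000 UMIs (CPM), with 95% exact Poisson intervals for levels and exact conditional binomial intervals for ratios (Python 3.11.15, numpy 2.4.6, scipy 1.17.1, scanpy 1.11.5). Shares have exact Clopper-Pearson intervals. A sum of 0 UMIs was set to a floor of 3 UMIs in a ratio. Barcodes are not replicates, so with 1 library per group no p-value was computed and genes were called by size alone. The calculation of ratios and calls was tested on simulated sums with Poisson counting error only. That test does not cover UMIs concentrated in single barcodes or the mix of types.

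Genes named in the text are the rule genes, the 12 highest and 12 lowest ratios among genes with at least 50 UMIs that stood at or above free RNA (10 CPM added to both levels, leaving out unnamed, mitochondrial, ribosomal and haemoglobin genes and markers of other cells), the 20 leading genes over other barcodes (20 CPM added), up to 4 genes per list by size of ratio and up to 4 by level, and marker genes. Fap, Irf1, Isg15, Lrrc15, Postn, Stat2, Timp1 and Tnc lie outside these criteria and were chosen after their values were seen. The members and lists were chosen with earlier results of these data known, so no count of a list is independent support. Values without the barcode richest in a gene were added after the data were seen. Promoter windows came from RefSeq (GRCm38.p6). Results for some genes are not reported here.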

Additional observations from a re-analysis of the deposited data

How the results depend on the processing

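The share of fibroblasts was 0.804% in the metastasis and 0.910% in the naive library with a depth limit set from the deepest barcodes, 0.691% and 0.514% with at least 10 UMIs and 0.3% of the rule genes, and 0.918% in the naive library with at most 10% mitochondrial UMIs. The count of genes higher with metastasis (444) was 165 after thinning to 1000 UMIs, 761 with free RNA subtracted, 144 with at least 50 UMIs per gene and 1519 with 1 UMI in each library. The count of lower genes (314) was 105, 508, 69 and 1262 under the same settings, and 205 with 10 UMIs and 0.3% of the rule genes. The following were chosen after seeing the data: 183 genes were higher in the Slc47a1 type alone and 254 without barcodes with 3 myeloid or 3 oligodendrocyte UMIs, and 209 were lower in the Dcn type alone. The chemokine median (4.61) was 5.39 with the limit from the deepest barcodes, 3.58 with 10 UMIs and 0.3% of the rule genes, 2.69 after thinning and 1.27 with 1 UMI in each library. Among the added settings it was 3.40 in the Dcn type, -0.45 in the Slc47a1 type, 3.99 without the barcode richest in chemokines, 0.71 without the 14 barcodes, 1.15 without barcodes with 3 myeloid UMIs and 1.17 without those with 3 myeloid or 3 oligodendrocyte UMIs.

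The interferon median (1.59) ranged from 0.66 in the Slc47a1 type to 2.30 with 10 UMIs and 0.3% of the rule genes. The class I median (1.48) ranged from 0.94 in the Slc47a1 type to 2.12 with 10 UMIs and 0.3% of the rule genes. The complement median (1.85) was 1.24 in the Dcn type and 1.04 after thinning. Single genes changed direction in the Dcn type (Abcg2 0.060, Adgrv1 0.21, Bche 1.53 and Rspo3 1.02), in the Slc47a1 type (Dcn -0.70 and Isg15 -0.84) after thinning (Irf1 -0.044) and with free RNA subtracted (C1qb -0.28, or -0.71 with free RNA of 100 to 300 UMIs). The cause was not tested. Leaving out barcodes with 3 UMIs of any other class left no fibroblast in either library and gave no value. No paired analysis was possible because each group is 1 library. At this depth a fibroblast sum of 0 UMIs allows up to 5.50 CPM with metastasis and 4.81 in the naive library.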
